A study of Mus musculus with 7 samples.

Results

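Krüppel-like factors are transcription factors that bind GC-rich DNA through zinc fingers at the end of the protein. Transcripts of 10 family members (Klf2, Klf3, Klf4, Klf6, Klf7, Klf9, Klf10, Klf11, Klf12 and Klf13) were followed in FOXP3-high and FOXP3-low tumour regulatory T cells of mice. These cells, Treg cells for short, hold back other immune cells and need the transcription factor FOXP3. The members were the rows of the deposited count table with exactly these 10 gene names, out of 57180 genes in the table. The 3 FOXP3-high and 4 FOXP3-low samples were sorted from the infiltrate of B16-F0 melanomas, a transplantable mouse melanoma. All 7 samples carried the genotype label WT, and all hosts were Foxp3-Cre-YFP mice, in which Cre recombinase and a yellow fluorescent protein are made where Foxp3 is active. The labels name no treatment, age, sort gate or number of mice per sample, so separate animals cannot be assumed and each p-value covers the variation among the 7 samples, part or all of which may be technical.

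The family is usually divided by the partner proteins its members recruit. KLF2, KLF4, KLF6 and KLF7 are mainly activators. KLF3, KLF8 and KLF12 recruit the corepressor CtBP, and KLF9, KLF10, KLF11 and KLF13 bind the corepressor SIN3A. In T cells KLF2 is known for keeping resting cells out of division and for driving receptors for recirculation, such as S1pr1, and KLF10 is known in mouse Treg cells as a TGF-beta-induced factor that supports Foxp3. KLF4 slows division and is a factor of monocyte differentiation. Because the members bind similar boxes through similar fingers, which members are present is part of how a cell reads those boxes.

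Klf2 was higher and Klf4 was lower in FOXP3-high cells, so these mainly activating members moved in opposite directions although their DNA-binding parts are close. All 10 members held a coding stretch of 243 bases spanning 3 zinc fingers in the GENCODE M21 transcripts. Klf2 and Klf4 shared 78.2% of the bases in that stretch. The stretches of these members, each the other's closest match among the 10, are shown with capitals at the bases where the sequences differ.
Klf2: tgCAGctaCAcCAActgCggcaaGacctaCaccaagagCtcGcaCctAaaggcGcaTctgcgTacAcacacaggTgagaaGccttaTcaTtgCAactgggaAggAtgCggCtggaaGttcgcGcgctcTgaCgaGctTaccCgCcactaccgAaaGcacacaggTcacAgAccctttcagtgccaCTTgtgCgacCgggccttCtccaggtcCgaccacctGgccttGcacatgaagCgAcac
Klf4: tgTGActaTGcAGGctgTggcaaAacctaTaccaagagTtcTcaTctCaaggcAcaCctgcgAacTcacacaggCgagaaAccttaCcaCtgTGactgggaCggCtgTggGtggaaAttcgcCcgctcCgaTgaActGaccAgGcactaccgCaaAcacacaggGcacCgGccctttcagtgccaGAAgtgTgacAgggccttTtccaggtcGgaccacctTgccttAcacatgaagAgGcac
Over all 45 pairs of members the identity of this stretch ran from 57.2% to 81.1%, with a median of 65.8%. The longest run of identical bases between whole transcripts of a pair was 11 to 41 bases, with a median of 14. How the authors counted reads that fit several genes was not stated.

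All 10 members passed the filter on low counts. With edgeR's quasi-likelihood test and an adjusted p under 0.05 over all genes, 8 of the 10 differed between the groups, 5 higher (Klf2, Klf3, Klf6, Klf9, Klf13) and 3 lower (Klf4, Klf7, Klf10) in FOXP3-high. Of all 15838 genes tested 46.5% passed the same threshold (21.8% higher and 24.6% lower in FOXP3-high). The libraries of both groups did not overlap for 9 of the 10 members, against 50.7% of all genes tested. The median log2 fold change was 0.40 over the members and 0.01 over all genes tested. Levels are CPM, the counts of a gene scaled to a common library size with TMM normalization, and fold changes are FOXP3-high over FOXP3-low.

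**Figure D1:**
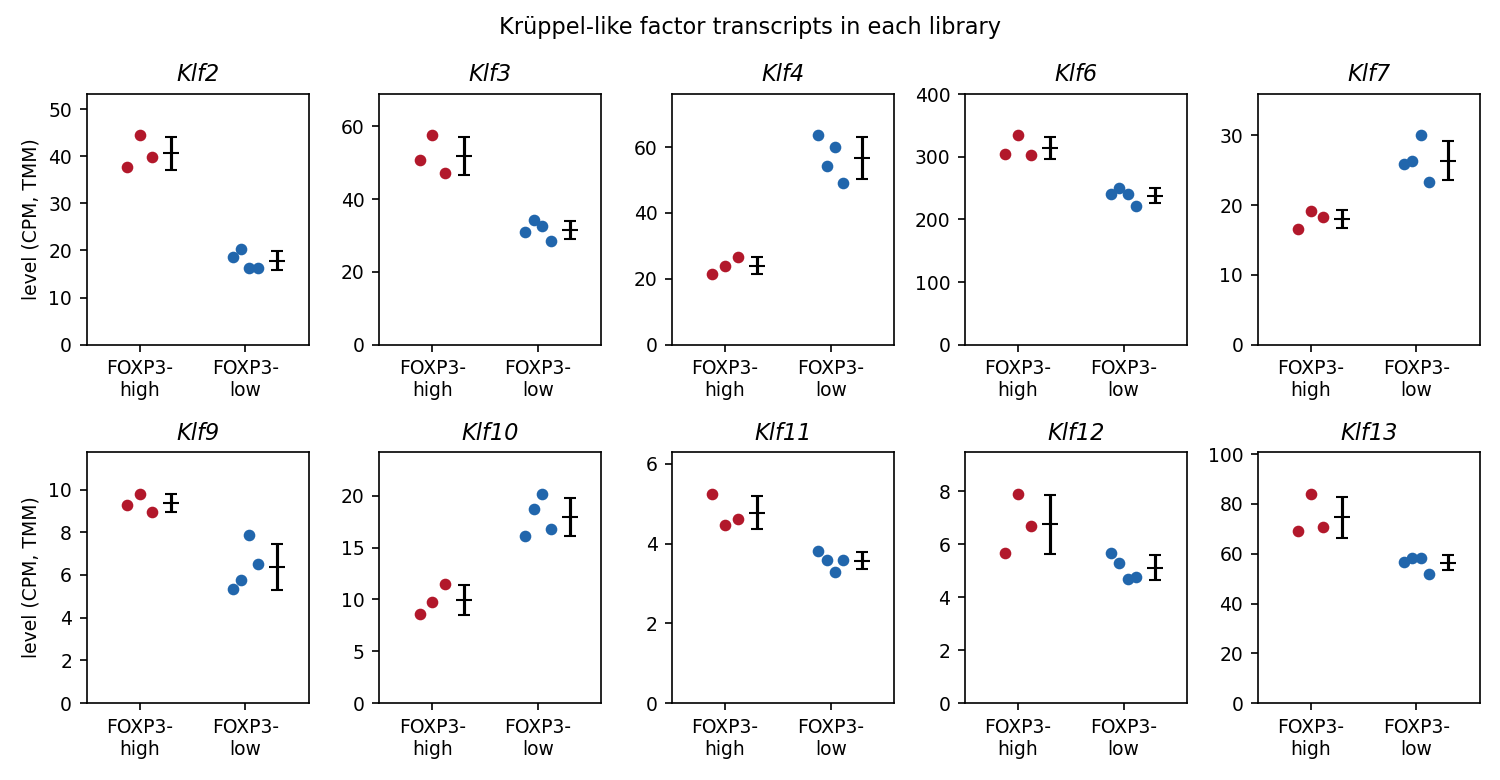
Level of each of the 10 members in CPM (vertical axes, each starting at 0) in the 3 FOXP3-high libraries (red, left) and the 4 FOXP3-low libraries (blue, right), with points in replicate order and the mean and SD beside them. Klf2 stood at 37.7 to 44.4 CPM in FOXP3-high and 16.2 to 20.3 CPM in FOXP3-low, Klf4 stood at 21.5 to 26.5 CPM in FOXP3-high and 49.2 to 63.5 CPM in FOXP3-low, and only the points of Klf12 overlap.

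The libraries themselves differed in more than Foxp3. Totals were 9048771 to 11202260 counts in FOXP3-high and 12177761 to 14546999 counts in FOXP3-low. Foxp3 averaged 698 ± 95.4 CPM in FOXP3-high and 357 ± 44.3 CPM in FOXP3-low (SD, n = 3 and 4; edgeR adjusted p = 7.47e-05), in the direction of the labels. The T cell identity list (15 higher and 1 lower of 17) summed to 5034 to 5731 CPM in FOXP3-high and 3829.6 to 4249 CPM in FOXP3-low, and the Treg list, Foxp3 included, had 8 higher and 1 lower of 12 and summed to 4566 to 5560.4 CPM in FOXP3-high and 3177 to 3632 CPM in FOXP3-low. Markers of other cells differed too: 1 of 16 macrophage and monocyte genes was higher and 15 lower, 7 of 8 neutrophil genes, 10 of 10 dendritic cell genes, 4 of 7 CD8 T and NK cell genes and 4 of 6 B cell genes were lower, and 10 of 10 melanoma genes were higher in FOXP3-high. None of 10 endothelial and 4 erythroid genes passed in either direction, and 1 of 8 fibroblast genes was lower. In bulk RNA, fewer cells of a type and less RNA per cell cannot be told apart. When libraries were scaled to the 17 T cell identity genes in place of TMM, all fold changes shifted by about -0.38 (log2, median of all genes).

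Among the activating members, Klf2 (ENSMUSG00000055148, GRCm39 chr8:73072877-73075500) rose in FOXP3-high. Its level was 37.7, 44.4 and 39.7 CPM in FOXP3-high replicates 1 to 3, against 18.6, 20.3, 16.2 and 16.3 CPM in FOXP3-low replicates 1 to 4. Every FOXP3-high library lay above every FOXP3-low library, and the lowest FOXP3-high value was well over the highest FOXP3-low value. The means were 40.6 ± 3.46 CPM in FOXP3-high and 17.8 ± 1.96 CPM in FOXP3-low (SD, n = 3 and 4), a 2.27-fold difference (log2 fold change 1.19 ± 0.10 SE, edgeR adjusted p = 1.39e-05). Endothelial cells also express Klf2. The 10 endothelial genes summed to 214, 75.0 and 375 CPM in FOXP3-high and to 103, 131, 343 and 117 CPM in FOXP3-low, and the FOXP3-high library with the most Klf2 (replicate 2) had the lowest endothelial sum. Whether endothelial cells contributed to the Klf2 difference was not tested. With T cell identity scaling the log2 fold change of Klf2 was 0.80, still called higher.

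Klf4 (ENSMUSG00000003032, chr4:55527143-55532466) fell in FOXP3-high. Its level was 21.5, 23.9 and 26.5 CPM in the FOXP3-high libraries and 63.5, 54.3, 59.9 and 49.2 CPM in the FOXP3-low libraries. The groups did not overlap, and the FOXP3-low libraries spread more widely. The means were 24.0 ± 2.51 CPM in FOXP3-high and 56.7 ± 6.31 CPM in FOXP3-low (SD, n = 3 and 4), 2.37-fold lower (log2 fold change -1.24 ± 0.11 SE, edgeR adjusted p = 1.65e-05). Monocytes and macrophages also express Klf4. The macrophage and monocyte list summed to 557 to 606 CPM in FOXP3-high, of which Ccr2, chosen for naming after its values were seen, gave 450.1 ± 45.7, and to 1987 to 2471 CPM in FOXP3-low, and no gene of it was at 0 in all libraries. In FOXP3-low both this sum and Klf4 were highest in replicate 1 and lowest in replicate 4, and in FOXP3-high both were lowest in replicate 1. Replicates 2 and 3 stood in opposite order in both groups. In FOXP3-high most of this sum was Ccr2, so its order of libraries need not be that of the other genes. In FOXP3-high replicates 1 to 3, Itgam was at 25.5, 17.3 and 32.7 CPM and Lyz2 at 27.6, 19.1 and 37.2 CPM. Like Klf4, both were higher in replicate 3 than in replicate 2. Csf1r was at 4.04, 6.12 and 7.08 CPM and Cd68 at 6.28, 5.90 and 5.57 CPM. The list sums of replicates 2 and 3 were 2315 and 2228 CPM in FOXP3-low and 606 and 596 CPM in FOXP3-high, with more Klf4 in replicate 3. Whether monocytes and macrophages contributed to the Klf4 difference was not tested.

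Klf6 (ENSMUSG00000000078, chr13:5911481-5917274), an early gene of tissue injury, was the most abundant member in both groups. It stood at 304, 334 and 303 CPM in FOXP3-high, against 239.9, 249, 241 and 221 CPM in FOXP3-low. The groups did not overlap, but the difference was small beside that of Klf2. The means were 314 ± 17.7 CPM in FOXP3-high and 238 ± 11.8 CPM in FOXP3-low (SD, n = 3 and 4; 1.32-fold, log2 fold change 0.40 ± 0.06 SE, edgeR adjusted p = 0.000326). With T cell identity scaling the difference of Klf6 was 0.01 on the log2 scale and no longer called.

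Klf7 (ENSMUSG00000025959, chr1:64068606-64161441), best known from developing neurons and closest to Klf6 in its fingers, went the other way. It was at 16.6, 19.1 and 18.3 CPM in FOXP3-high and at 25.9, 26.4, 30.0 and 23.3 CPM in FOXP3-low. All FOXP3-high libraries lay below all FOXP3-low libraries. The means of 18.0 ± 1.30 CPM in FOXP3-high and 26.4 ± 2.77 CPM in FOXP3-low (SD, n = 3 and 4) gave a 1.47-fold lower level (log2 fold change -0.55 ± 0.11 SE, edgeR adjusted p = 0.00199).

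Of the CtBP-binding repressors, Klf3 (ENSMUSG00000029178, chr5:64960731-64990244), a regulator of lymphocyte and red cell development, rose. Its level was 50.8, 57.6 and 47.2 CPM in FOXP3-high, against 31.0, 34.2, 32.7 and 28.4 CPM in FOXP3-low. No FOXP3-low library reached the FOXP3-high range. Klf3 averaged 51.9 ± 5.26 CPM in FOXP3-high and 31.6 ± 2.45 CPM in FOXP3-low (SD, n = 3 and 4; 1.64-fold, log2 fold change 0.71 ± 0.09 SE, edgeR adjusted p = 0.000183). Scaled to the T cell identity genes, the log2 fold change was 0.33, still called. Klf3 overlaps the gene model Gm20033 on the opposite strand, which held 629 counts against 3216 of Klf3 over the 7 libraries. Whether the authors counted by strand was not stated, so reads of these genes may be mixed.

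Klf12 (ENSMUSG00000072294, chr14:100108068-100522115), the member closest to Klf3 in its fingers, was among the scarcest. It stood at 5.67, 7.90 and 6.70 CPM in FOXP3-high and at 5.69, 5.29, 4.70 and 4.77 CPM in FOXP3-low. The groups overlapped, since FOXP3-high replicate 1 fell just under FOXP3-low replicate 1. The fold was 1.32 with a 95% interval of 1.0 to 1.74 (edgeR adjusted p = 0.0939), an interval that also holds the 1.64-fold of Klf3.

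Among the SIN3A-binding members, Klf10 (ENSMUSG00000037465, chr15:38291707-38300950), the TGF-beta-inducible member, fell. It was at 8.60, 9.80 and 11.5 CPM in FOXP3-high, against 16.2, 18.7, 20.2 and 16.8 CPM in FOXP3-low. The groups were clearly apart. The means were 9.97 ± 1.47 CPM in FOXP3-high and 18.0 ± 1.83 CPM in FOXP3-low (SD, n = 3 and 4), 1.80-fold lower (log2 fold change -0.85 ± 0.14 SE, edgeR adjusted p = 0.000693).

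Klf11 (ENSMUSG00000020653, chr12:24701273-24712788), also TGF-beta-inducible and the closest relative of Klf10 among the 10, did not follow it. It stood at 5.24, 4.45 and 4.62 CPM in FOXP3-high and at 3.82, 3.58, 3.29 and 3.60 CPM in FOXP3-low. The groups did not overlap, yet the values rest on 40 to 61 counts per library and the difference missed the threshold (1.34-fold, 95% interval 1.01 to 1.77, edgeR adjusted p = 0.0812).

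Klf13 (ENSMUSG00000052040, chr7:63536099-63588663), known in human T cells as an activator of CCL5, was the most abundant of the SIN3A-binding members. It was at 69.0, 84.1 and 70.9 CPM in FOXP3-high and at 56.9, 58.2, 58.5 and 51.9 CPM in FOXP3-low, without overlap. Its means were 74.7 ± 8.19 CPM in FOXP3-high and 56.4 ± 3.04 CPM in FOXP3-low (SD, n = 3 and 4; 1.32-fold, log2 fold change 0.40 ± 0.08 SE, edgeR adjusted p = 0.00316). Like Klf6, it was at a log2 difference of 0.02 with T cell identity scaling and was then not called.

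Klf9 (ENSMUSG00000033863, chr19:23118590-23145498), a gene induced by glucocorticoid and thyroid hormones, was higher by a narrow margin. It was at 9.29, 9.80 and 8.97 CPM in FOXP3-high, against 5.36, 5.78, 7.85 and 6.53 CPM in FOXP3-low. The groups did not overlap, although FOXP3-low replicate 3 came close to the FOXP3-high range. The fold was 1.46 (log2 fold change 0.55 ± 0.17 SE, edgeR adjusted p = 0.0231). This call was lost without FOXP3-high replicate 1 (edgeR adjusted p = 0.0673), FOXP3-high replicate 2 (0.0502) or FOXP3-low replicate 2 (0.0520), with no filter on low counts (0.0612), under T cell identity scaling (0.51) and with edgeR's glmTreat, which tests against a log2 fold change of 0.5 (0.542).

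**Figure D2:**
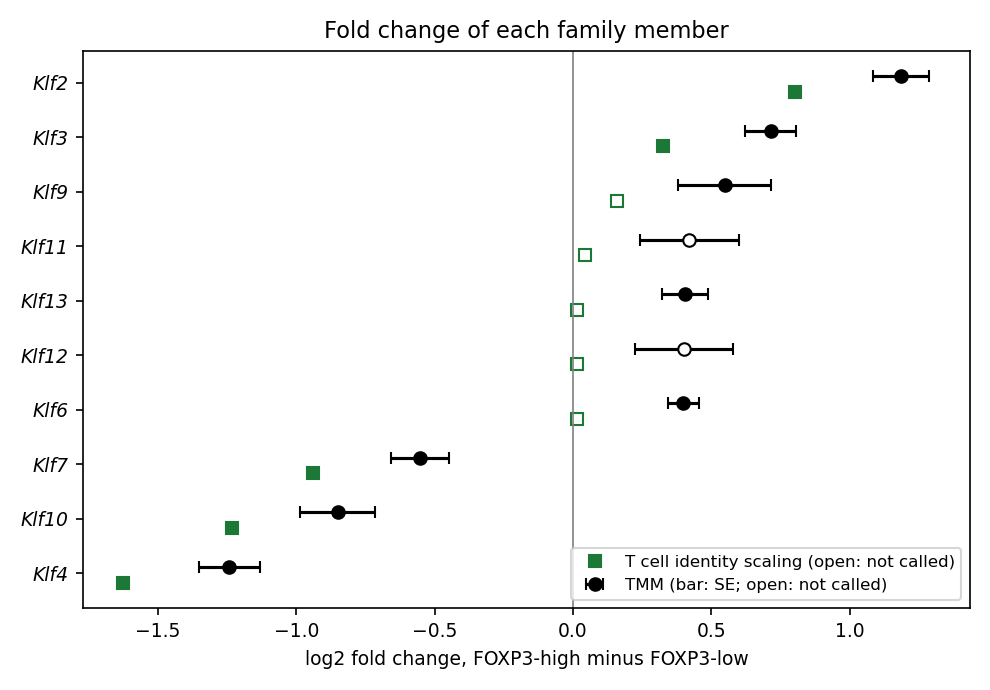
Log2 fold change of each member, FOXP3-high minus FOXP3-low (horizontal axis), with TMM scaling (black circles, bars of 1 SE) and with scaling to the T cell identity genes (green squares), where open symbols did not pass the threshold. Klf2 and Klf3 lie to the right and Klf4, Klf7 and Klf10 to the left with either scaling, and Klf6, Klf13 and Klf9 are called only with TMM.

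With T cell identity scaling the members called were 2 higher (Klf2, Klf3) and 3 lower (Klf4, Klf7, Klf10), where 6.9% of all genes tested were called higher and 45.2% lower. The median log2 fold change was then 0.02 over the 10 members and -0.37 over all genes tested. No member changed its direction under any of the alternatives tried.

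Within one library, the make-up of the family does not depend on how libraries are scaled. Levels between genes were compared as CPM per kilobase of the gene length in the table. In FOXP3-high the order was Klf6, Klf2, Klf13, Klf4, Klf3, Klf10, Klf7, Klf9, Klf11 and Klf12, and in FOXP3-low it was Klf6, Klf4, Klf2, Klf13, Klf10, Klf7, Klf3, Klf9, Klf11 and Klf12. Neighbours whose means differed by less than the sum of their SDs were Klf10 and Klf7 in FOXP3-high, Klf7 and Klf3 in FOXP3-low, and Klf11 and Klf12 in both groups. Klf6 led with 71.5 ± 4.04 CPM per kb in FOXP3-high and 54.2 ± 2.69 CPM per kb in FOXP3-low. The second place was held by Klf2 in FOXP3-high, at 22.0 ± 1.88 CPM per kb, and by Klf4 in FOXP3-low, at 18.6 ± 2.07 CPM per kb (SD, n = 3 and 4).

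As shares of the summed CPM per kb of the 10 members, Klf6 made up 57.4% ± 0.93 in FOXP3-high and 52.5% ± 0.82 in FOXP3-low. Klf2 made up 17.2%, 18.1% and 17.7% of the sum in FOXP3-high, against 9.53%, 10.3%, 8.30% and 9.34% in FOXP3-low. Klf4 made up 5.95%, 5.89% and 7.15% in FOXP3-high, against 19.7%, 16.7%, 18.6% and 17.1% in FOXP3-low. Neither member's shares overlapped between the groups, and Klf2 outranked Klf4 in every FOXP3-high library where Klf4 outranked Klf2 in every FOXP3-low library. Klf13 and Klf3 also took larger shares and Klf10 and Klf7 smaller shares in FOXP3-high without overlap, and the shares of Klf9, Klf11 and Klf12 overlapped. The sum of the 10 members behind these shares was 124 ± 7.75 CPM per kb in FOXP3-high and 103 ± 5.77 CPM per kb in FOXP3-low (SD, n = 3 and 4). Unlike the shares, this sum depends on how libraries are scaled, and it was computed with TMM only.

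**Figure D3:**
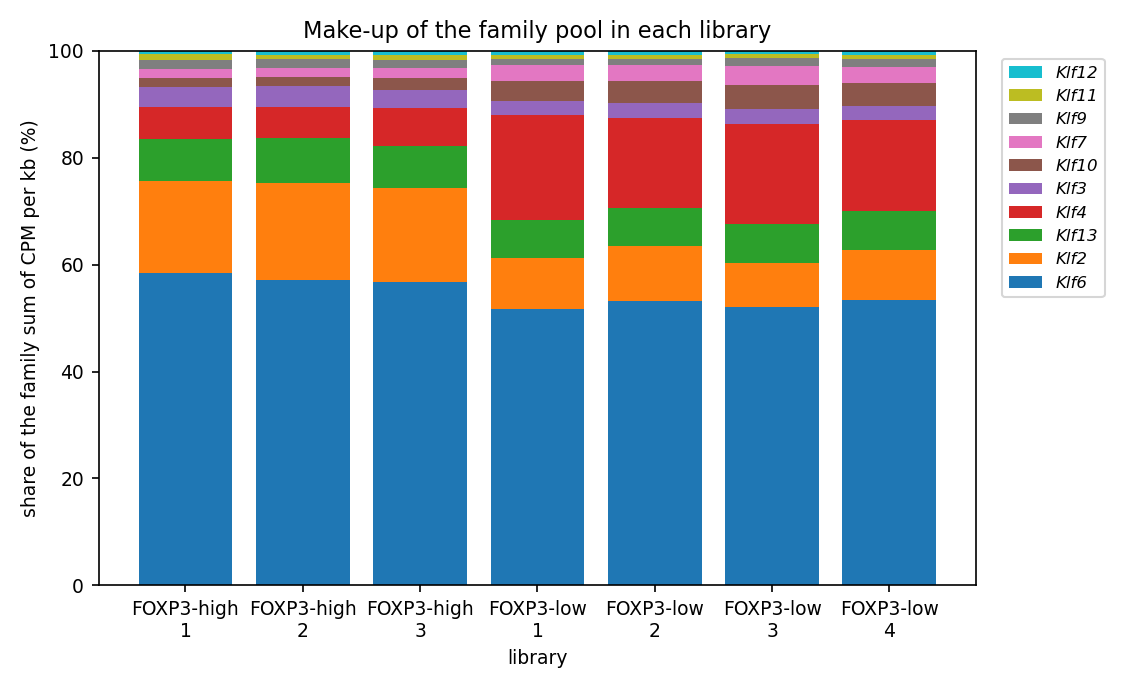
Share of each member in the summed CPM per kb of the 10 members (vertical axis, percent) in each library, FOXP3-high on the left and FOXP3-low on the right. Klf2 (orange) takes 17.2% to 18.1% in FOXP3-high and 8.30% to 10.3% in FOXP3-low, and Klf4 (red) takes 5.89% to 7.15% in FOXP3-high and 16.7% to 19.7% in FOXP3-low.

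Pairing each member with its mutual closest relative in the finger stretch gave 4 pairs: Klf2 with Klf4, Klf6 with Klf7 (81.1% identity), Klf3 with Klf12 (78.2%) and Klf10 with Klf11 (76.1%). The rule for these pairs was chosen after the levels were seen, so the ratios are descriptions without a test. Klf2 counts were 1.75, 1.86 and 1.50 times those of Klf4 in the FOXP3-high libraries and 0.293, 0.373, 0.270 and 0.332 times those of Klf4 in the FOXP3-low libraries. The balance between these members was thus on the side of Klf2 in every FOXP3-high library and on the side of Klf4 in every FOXP3-low library. The Klf6 to Klf7 ratio was 16.6 to 18.3 in FOXP3-high and 8.04 to 9.52 in FOXP3-low, and the Klf10 to Klf11 ratio was 1.64 to 2.49 in FOXP3-high and 4.23 to 6.13 in FOXP3-low. The Klf3 to Klf12 ratio differed least, with 7.04 to 8.96 in FOXP3-high and 5.46 to 6.96 in FOXP3-low. The groups did not overlap in any of the 4 ratios, but Klf3 to Klf12 was apart only by 7.04 against 6.96. No share over other gene pairs was computed. Taken singly, 9 of the 10 members and 50.7% of all genes tested did not overlap either. The count is therefore no result about these pairs.

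**Figure D4:**
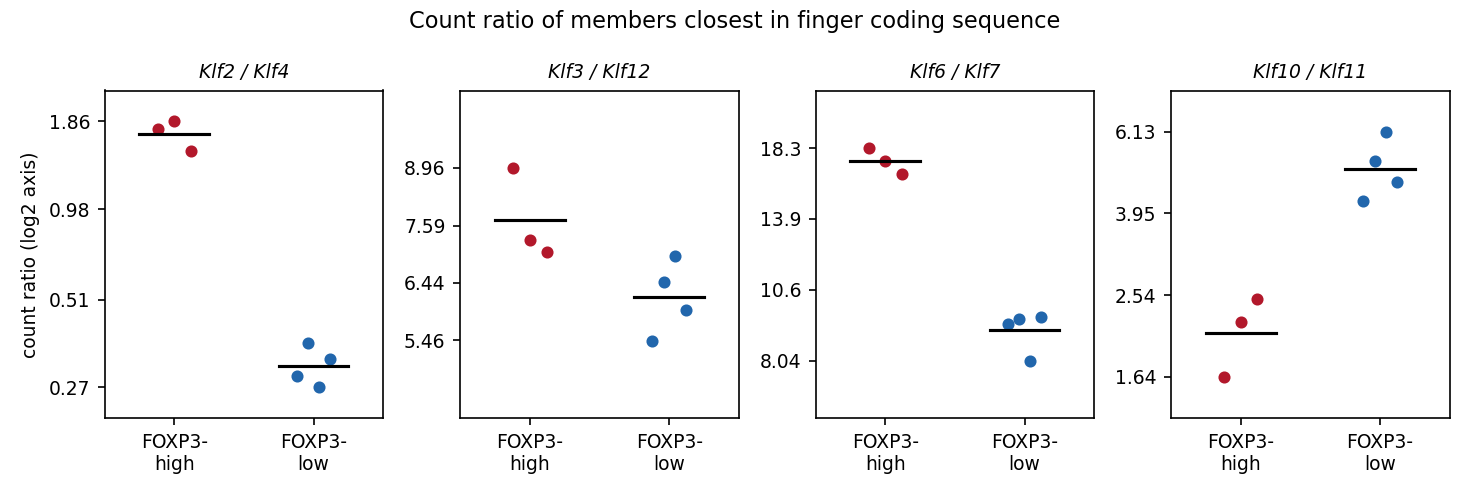
Ratio of the counts of 2 members with the closest finger coding sequences (vertical axes, log2 scale) in each FOXP3-high (red, left) and FOXP3-low (blue, right) library, with bars at the geometric mean. The Klf2 to Klf4 ratio has geometric means of 1.70 in FOXP3-high and 0.315 in FOXP3-low, and the Klf10 to Klf11 ratio has 2.08 in FOXP3-high and 5.02 in FOXP3-low.

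Other Krüppel-like factors were scarce. Of 8 further family members 3 were tested, and Klf15, a metabolic regulator of muscle and liver, was higher with 2.74 ± 0.60 CPM in FOXP3-high and 1.32 ± 0.30 CPM in FOXP3-low (SD, n = 3 and 4; edgeR adjusted p = 0.0175). That call was lost without FOXP3-high replicate 1 (adjusted p = 0.0671 by edgeR) or replicate 2 (0.0593), with the replicate block (0.0751), under T cell identity scaling (0.102) and with glmTreat (0.0997). Klf8 and Klf16 did not pass, Klf1, Klf5 and Klf14 were under the filter, and Klf17 and Klf18 had 0 counts in all 7 libraries, where 3 counts would be 0.210 to 0.334 CPM. Of the related Sp factors, which bind the same GC boxes, 5 of the 6 tested were higher and none lower (median log2 fold change 0.46). Sp4 was at 42.3 ± 3.71 CPM in FOXP3-high and 22.5 ± 3.76 CPM in FOXP3-low (edgeR adjusted p = 0.000304), and Sp9 at 46.9 ± 2.38 CPM in FOXP3-high and 31.4 ± 2.31 CPM in FOXP3-low (edgeR adjusted p = 0.000276). With T cell identity scaling 1 Sp factor was called higher and 1 lower, and the values of Sp1 and Sp3 changed sign to -0.049 and -0.077 (log2).

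Genes that KLF2 is known to control in T cells, or that change when it is lost, differed strongly but not all in one direction. Of the 9 such trafficking and survival genes reported here 8 were higher and 1 lower in FOXP3-high (7 higher and 1 lower under T cell identity scaling). The list mixes genes that KLF2 raises with genes that rise when it is lost, so its count has no expected direction. Ccr3 and Cxcr3, of the latter kind, were among the 8 (log2 fold change 2.41 and 1.07). Both were named outside the naming rule, after their values were seen. S1pr1, the receptor for exit from tissues and a direct KLF2 target, averaged 92.5 ± 4.75 CPM in FOXP3-high and 23.5 ± 7.04 CPM in FOXP3-low (SD, n = 3 and 4; edgeR adjusted p = 2.00e-05). In FOXP3-low, S1pr1 and the endothelial sum were both highest in replicate 3 (34.1 and 343 CPM), with the other libraries in differing order. In FOXP3-high the libraries stood in the same order for both. Whether endothelial cells contributed to the S1pr1 difference was not tested. Il7r, the receptor for the survival cytokine IL-7, averaged 434 ± 40.1 CPM in FOXP3-high and 127 ± 8.06 CPM in FOXP3-low (edgeR adjusted p = 2.24e-07). The chemokine receptor Ccr7 was lower, at 14.5 ± 0.29 CPM in FOXP3-high and 32.7 ± 3.54 CPM in FOXP3-low (edgeR adjusted p = 1.30e-05). Cd69, whose protein holds S1PR1 inside the cell, was higher, with 127 ± 16.4 CPM in FOXP3-high and 49.96 ± 2.12 CPM in FOXP3-low (edgeR adjusted p = 2.12e-06).

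**Figure D5:**
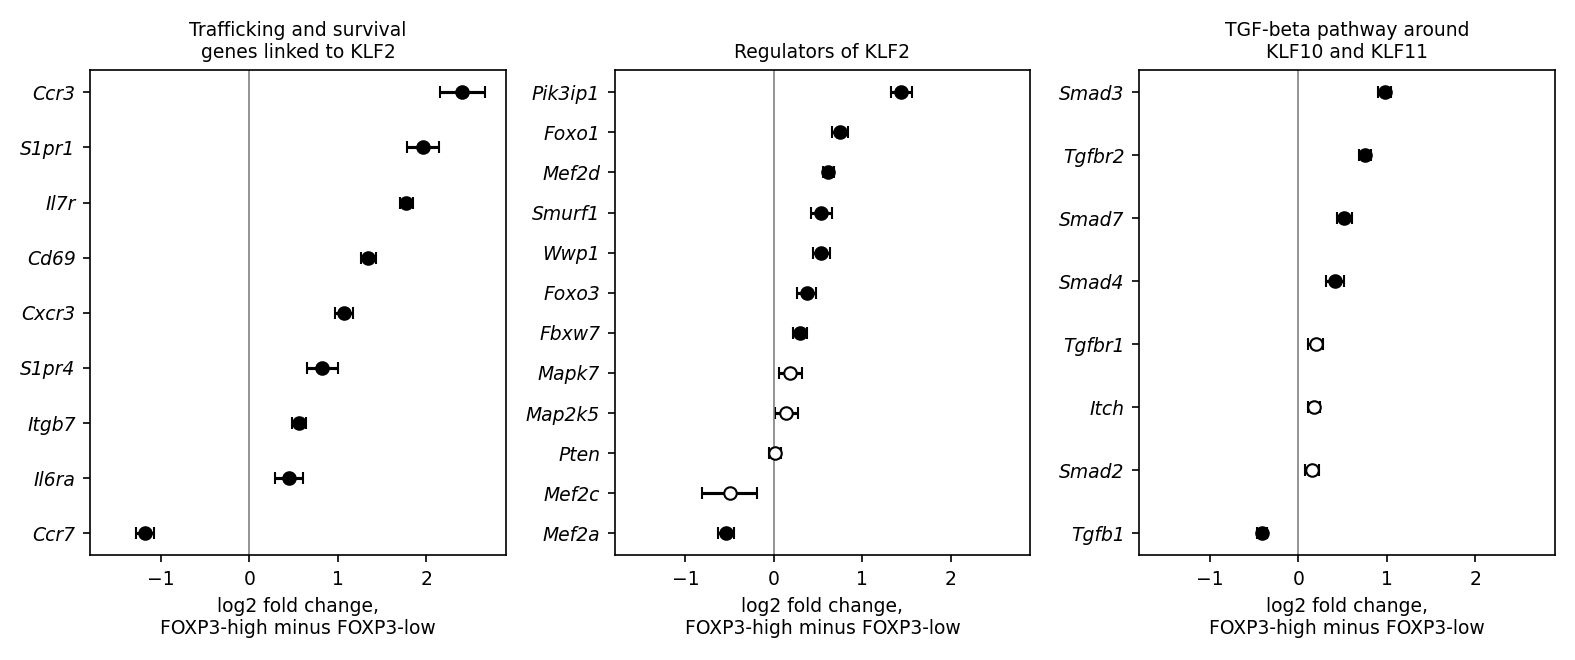
Log2 fold change, FOXP3-high minus FOXP3-low (horizontal axes, bars of 1 SE), of 9 trafficking and survival genes linked to KLF2, 12 regulators of KLF2 and 8 TGF-beta pathway genes around KLF10 and KLF11, where open circles did not pass the threshold. S1pr1 and Il7r lie far to the right and Ccr7 to the left, and Smad3 and Tgfbr2 are higher where Tgfb1 is lower.

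Regulators of KLF2 were more often higher than lower, 7 higher and 1 lower of 12 (median log2 fold change 0.33, or -0.051 with 3 higher and 2 lower under T cell identity scaling). The list mixes genes that act for and against KLF2, so its count has no expected direction. Smurf1, Wwp1 and Fbxw7, whose proteins help degrade KLF2, were among the 7 (log2 fold change 0.54, 0.53 and 0.29). Mapk7, the gene of ERK5, and Map2k5 did not pass (edgeR adjusted p = 0.281 and 0.420). These genes were named outside the naming rule, after their values were seen. Foxo1, the forkhead factor that activates Klf2 in T cells, averaged 45.5 ± 3.40 CPM in FOXP3-high and 27.0 ± 2.39 CPM in FOXP3-low (SD, n = 3 and 4; edgeR adjusted p = 0.000119). Pik3ip1, an inhibitor of the PI3-kinase signal that keeps FOXO1 out of the nucleus, averaged 24.1 ± 2.06 CPM in FOXP3-high and 8.85 ± 1.03 CPM in FOXP3-low (edgeR adjusted p = 1.03e-05). The MEF2 factors through which the kinase ERK5 drives Klf2 and Klf4 were split. Mef2d rose, with 159 ± 6.47 CPM in FOXP3-high and 104 ± 7.09 CPM in FOXP3-low (edgeR adjusted p = 4.25e-05), and Mef2a fell, with 85.9 ± 10.3 CPM in FOXP3-high and 125 ± 9.69 CPM in FOXP3-low (edgeR adjusted p = 0.000893).

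The 250 bases before the start of each member were searched for MEF2 and forkhead motifs, among others (RefSeq, GRCm38.p6, 9 of 10 members matched, without Klf10). A MEF2 motif, searched on both strands, lay 118 to 109 bases before the start of Klf2 and in no other member, and 2.92% of all 32851 windows held one. A forkhead motif (GTAAACA or ATAAACA, both strands) lay 167 to 161 bases before Klf4 and 100 to 94 bases before Klf9, and 7.1% of all windows held one. The windows are shown because their genes moved in different directions, Klf2 and Klf9 up and Klf4 down, with the matches in capitals.
Klf2, MEF2 match, chr8:72318812-72319061, plus strand: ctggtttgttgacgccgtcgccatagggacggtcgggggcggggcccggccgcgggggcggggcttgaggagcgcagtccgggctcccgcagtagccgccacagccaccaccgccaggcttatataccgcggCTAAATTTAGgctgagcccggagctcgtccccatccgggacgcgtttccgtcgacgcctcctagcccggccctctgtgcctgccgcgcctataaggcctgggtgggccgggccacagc
Klf4, forkhead match, chr4:55532476-55532725, minus strand: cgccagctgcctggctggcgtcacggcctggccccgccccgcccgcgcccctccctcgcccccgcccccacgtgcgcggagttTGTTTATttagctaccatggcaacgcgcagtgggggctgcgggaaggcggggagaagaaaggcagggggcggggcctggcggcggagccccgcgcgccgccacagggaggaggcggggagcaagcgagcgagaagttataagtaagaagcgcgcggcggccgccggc
Klf9, forkhead match, chr19:23140976-23141225, plus strand: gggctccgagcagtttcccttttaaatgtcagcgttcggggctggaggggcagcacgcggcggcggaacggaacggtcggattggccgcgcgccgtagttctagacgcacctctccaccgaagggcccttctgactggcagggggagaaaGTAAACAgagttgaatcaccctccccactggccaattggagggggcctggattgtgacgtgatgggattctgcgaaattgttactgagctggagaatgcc
CACCC, a box that the family itself binds, was present on either strand in 6 of the 9 windows (52.0% of all windows), GGGCGG in 7 of 9 (32.7%) and TGACG in 5 of 9 (17.8%). G and C made up 48% (Klf12) to 78.4% (Klf3) of the bases in the member windows, against a median of 52.4% over all windows. The shares were not adjusted for this. The motifs were chosen after the sequences were seen, and a match is a description of these letters and not a bound site.

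Partner proteins and pathway genes around the other members gave mixed counts. Of 14 coregulators that the proteins bind 5 were higher and 3 lower (median log2 fold change 0.08), and with T cell identity scaling 1 was higher and 8 lower (median -0.30). The acetyltransferase genes Crebbp (241 ± 12.6 CPM in FOXP3-high and 151 ± 5.55 CPM in FOXP3-low, edgeR adjusted p = 6.81e-06) and Ep300 (193 ± 10.6 CPM in FOXP3-high and 141 ± 7.24 CPM in FOXP3-low, edgeR adjusted p = 0.000188) rose. The deacetylase gene Hdac1 fell, with 228 ± 15 CPM in FOXP3-high and 325 ± 15.4 CPM in FOXP3-low (edgeR adjusted p = 8.73e-05). Ctbp2, a partner of KLF3 and KLF12, was lower as well (edgeR adjusted p = 0.0247), and Ctbp1 did not pass (edgeR adjusted p = 0.0890). Both CtBP genes were named outside the naming rule, after their values were seen.

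Around the TGF-beta-inducible Klf10 and Klf11, 4 of 8 pathway genes were higher and 1 lower (median log2 fold change 0.31, or -0.072 under T cell identity scaling, which called 2 higher and 3 lower). Smad3, a signal carrier of the pathway, averaged 62.3 ± 3.73 CPM in FOXP3-high and 31.6 ± 1.69 CPM in FOXP3-low (SD, n = 3 and 4; edgeR adjusted p = 5.58e-06). The receptor gene Tgfbr2 averaged 157 ± 3.09 CPM in FOXP3-high and 93.2 ± 7.60 CPM in FOXP3-low (edgeR adjusted p = 1.57e-05). The ligand gene Tgfb1 was lower, like Klf10, at 117 ± 7.66 CPM in FOXP3-high and 156 ± 4.25 CPM in FOXP3-low (edgeR adjusted p = 0.000258).

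Of 14 quiescence genes and cell cycle inhibitors linked to KLF2 and KLF4, 8 were higher and 3 lower (median log2 fold change 0.26, or -0.12 with 2 higher and 5 lower under T cell identity scaling). Cdkn1b (p27), a gene of resting T cells, averaged 203 ± 15.1 CPM in FOXP3-high and 109 ± 4.21 CPM in FOXP3-low (edgeR adjusted p = 2.90e-06). Cdkn1a (p21), a known KLF4 target, was lower like Klf4, at 18.8 ± 0.30 CPM in FOXP3-high and 49.6 ± 3.32 CPM in FOXP3-low (edgeR adjusted p = 1.19e-06). All 15 cell cycle genes were lower in FOXP3-high, with a median log2 fold change of -1.83. Of 16 immediate early genes, a class to which Klf2, Klf4, Klf6 and Klf10 are often counted, 3 were higher and 8 lower (median log2 fold change -0.36), and under T cell identity scaling none was higher and 12 were lower. Egr1 averaged 77.9 ± 5.87 CPM in FOXP3-high and 160 ± 13.1 CPM in FOXP3-low (edgeR adjusted p = 5.88e-06). With TMM, Klf4 and Klf10 thus lay on the side of Egr1, and Klf2 and Klf6 on the other side. Klf6 was not called under T cell identity scaling.

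Patterns over the 7 libraries were compared by the root mean square distance between centred log2(CPM + 1) values. Candidates were 9774 tested genes whose mean over the 7 libraries reached 5 CPM, leaving out Gm, Rik and LOC gene models. The genes most like Klf2 were Tmem71, Ifi213 and Bcl11b. Their distances were 0.0664, 0.0728 and 0.0799, and Bcl11b, a factor of T cell identity, averaged 355 ± 23.1 CPM in FOXP3-high and 162 ± 5.73 CPM in FOXP3-low (SD, n = 3 and 4). Nearest to Klf4 were Prf1 (perforin, distance 0.0703), Pla2g15 (a lysosomal phospholipase, 0.0752) and Uck2 (a kinase of pyrimidine salvage, 0.0799). Prf1 averaged 9.34 ± 1.65 CPM in FOXP3-high and 22.8 ± 2.93 CPM in FOXP3-low. Pla2g15 averaged 2.46 ± 0.34 CPM in FOXP3-high and 7.67 ± 0.82 CPM in FOXP3-low, so it reached 5 CPM only through FOXP3-low. Its log2 fold change was -1.64 against -1.24 for Klf4, a gap that adding 1 CPM narrows at low levels. Klf2 and Klf4 were chosen for their group difference, so closeness to them includes that difference and is no separate support.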

How the data were processed

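Per the labels, TRIzol RNA of 3 FOXP3-high and 4 FOXP3-low samples (100 to 200 ng each) went into a stranded mRNA kit. The authors deposited whole-number counts per gene, not normalized, with gene coordinates and lengths. The submitters' processing notes name fastp 0.23.4, STAR 2.5.3a, featureCounts and the builds GRCh38 and GRCm39, without roles. Coordinates belong to mouse genes and were taken as GRCm39. The strand setting and the rule for shared reads were not stated there. Depth limits the precision, since 1 CPM equals 8.98 counts at the smallest and 14.3 counts at the largest total. Tests were run in R 4.3.3 using edgeR 4.0.16 (filterByExpr defaults, TMM, quasi-likelihood test, Benjamini-Hochberg over 15838 genes, threshold 0.05). SE is the absolute log2 fold change over the square root of F. The edgeR step was tested on simulated data.

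The members, the 21 gene lists and the tests were chosen with earlier results of these data known. Named were all members, up to 4 genes with the smallest adjusted p in each list described, and the 3 nearest patterns of the members with the largest rise and fall. For the trafficking list 2 genes are not reported here, so its counts cover the remaining genes only and no median is given. Values of marker genes are given as list counts and sums, apart from the marker genes named in the text. Alternatives were other scalings (DESeq2 size factors, upper quartile, total counts, T cell identity genes), filters (none, or 50 counts in each of 3 libraries) and tests (DESeq2 1.42.0, limma-voom 3.58.1, glmTreat against 0.5), each library left out, both libraries numbered 3 left out, and a replicate block. Promoter windows and finger stretches were read from RefSeq and GENCODE M21.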

Additional observations from a re-analysis of the deposited data

How the results depend on the processing

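Klf2, Klf3, Klf4 and Klf10 kept their call and direction under all 18 alternatives, with log2 fold changes of 0.80 to 1.27, 0.33 to 0.79, -1.63 to -1.17 and -1.23 to -0.78. Leaving out each library gave 4 to 5 members higher and 3 lower, and 2718 to 3318 genes higher and 3412 to 3674 lower. The members higher were 2 with T cell identity scaling and 2 with glmTreat against a log2 fold change of 0.5, and Klf7 was not called by glmTreat (adjusted p = 0.433). Over all genes, T cell identity scaling called 1093 higher and 7160 lower (13.2% of calls higher, against 47.0% with TMM), and glmTreat called 929 higher and 1826 lower; the cause was not tested. Klf11 and Klf12 were called higher with total counts (edgeR adjusted p = 0.0455 and 0.0469). Of the 20 places in the order of levels, 5 were kept when CPM was not divided by gene length, and all 20 without each library. With T cell identity scaling the named genes Ncor1 (-0.072), Sp1 (-0.049) and Sp3 (-0.077) changed sign and were not called. Among the companion lists, the medians of KLF2 regulators (-0.051), TGF-beta genes (-0.072), quiescence genes (-0.12) and coregulators (-0.30) also turned negative. The median of all genes tested was -0.37 with that scaling. The endothelial gene Cdh5 (0.25, not called) was at -0.12 with T cell identity scaling, -0.60 with limma-voom, -0.17 with the replicate block, and from -0.65 (without FOXP3-high replicate 3) to 1.21 (without FOXP3-low replicate 3) when single libraries were left out, with -0.016 without FOXP3-low replicate 1. With the replicate block 3294 genes were higher and 3735 lower, and 5 members higher and 3 lower. Deviations of libraries with the same number had correlations of -0.187, 0.152 and 0.683 for replicates 1 to 3. Of the 3 FOXP3-high samples 1 correlated best with its own number. The labels do not say whether such libraries share an animal or a sort, and so few correlations cannot decide it. Klf11 and Klf12 rest on 40 to 71 counts per library.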
